A study of Mus musculus with 24 samples.

Results

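The immediate early genes Fos, Fosb, Junb, Egr1, Egr2, Egr3, Egr4, Arc, Nr4a1 and Dusp1 were examined in 2 brain regions, amygdala and hippocampus. The mice were males of 2 lines, line 24 with low freezing and line 25 with high freezing, from a study of selection for contextual fear conditioning. The members were chosen by name: every probe set whose annotation gave 1 gene symbol, and that symbol was a member, was taken. This gave 12 probe sets for 10 genes, of 45037 probe sets tested and 18193 genes named. Egr2 and Egr3 had 2 probe sets each, and the one with the higher mean signal stands for its gene unless stated otherwise. The 4 groups, low and high line in each tissue, held 6 arrays each, 24 in all, made from total RNA. The lines each came from 1 breeding line, so selection and chance differences between the lines cannot be told apart. Age, handling, time of dissection and whether RNA was pooled were not given in the sources used here, so p-values measure the spread between arrays, which may in part be technical.

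Immediate early genes are transcribed within minutes of a stimulus, from factors already present in the cell, and their transcripts are short-lived. In neurons, calcium entry and MAP kinase signalling activate CREB and the serum response factor, which bind cyclic AMP response elements (CRE) and CArG boxes of many such genes. Fos, Fosb and Junb form AP-1 transcription factors, the Egr genes encode zinc finger factors, and Nr4a1 encodes an orphan nuclear receptor. Arc encodes a synaptic protein that promotes the removal of AMPA receptors, and Dusp1 encodes a phosphatase that switches MAP kinases off. In the hippocampus and amygdala these transcripts are widely used as marks of recent neuronal activity, including that of fear learning.

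Promoters of Fos, Nr4a1, Dusp1 and Egr2 are printed as examples. Elements such as CRE and CArG boxes are among those through which activity is known to act on immediate early genes. Whether the elements bear on how the transcripts varied together was not tested. RefSeq windows of 250 bases before the transcription start (GRCm38.p6) were used for 7 of the 10 genes: Fos, Fosb, Junb, Egr2, Egr4, Nr4a1 and Dusp1. Arc, Egr1 and Egr3 had no entry. In the sequences that follow, written 5′ to 3′ in the direction of the gene, capitals mark the CRE half-site TGACG (or CGTCA on the other strand), the full CRE TGACGTCA, and the CArG box.
Fos, chr12:85473640-85473889, plus strand: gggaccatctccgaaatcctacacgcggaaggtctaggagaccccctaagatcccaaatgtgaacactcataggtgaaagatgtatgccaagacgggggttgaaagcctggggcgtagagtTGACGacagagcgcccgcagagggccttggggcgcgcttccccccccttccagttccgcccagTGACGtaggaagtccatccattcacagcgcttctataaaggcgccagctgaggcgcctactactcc
Nr4a1, chr15:101266596-101266845, plus strand: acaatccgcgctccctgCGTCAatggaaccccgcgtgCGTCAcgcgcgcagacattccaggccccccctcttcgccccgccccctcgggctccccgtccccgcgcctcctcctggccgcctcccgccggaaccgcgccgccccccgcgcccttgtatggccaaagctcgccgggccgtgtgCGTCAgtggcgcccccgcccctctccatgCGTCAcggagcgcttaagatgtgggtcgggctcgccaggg
Dusp1, chr17:26508473-26508722, minus strand: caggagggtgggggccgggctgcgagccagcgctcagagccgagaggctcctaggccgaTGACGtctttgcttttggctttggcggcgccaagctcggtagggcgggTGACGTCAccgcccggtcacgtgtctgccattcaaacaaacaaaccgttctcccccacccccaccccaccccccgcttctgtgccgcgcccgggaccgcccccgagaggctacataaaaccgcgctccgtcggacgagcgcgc
Egr2, chr10:67537619-67537868, plus strand: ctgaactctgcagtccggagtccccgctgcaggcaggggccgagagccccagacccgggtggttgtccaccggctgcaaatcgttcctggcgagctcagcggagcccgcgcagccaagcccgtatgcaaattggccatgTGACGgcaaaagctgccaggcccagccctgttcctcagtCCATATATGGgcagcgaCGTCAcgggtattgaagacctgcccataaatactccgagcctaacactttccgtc

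The CRE half-site, searched on both strands, was present in at least 1 window of all 7 genes and in 17.8% of all 32851 promoter windows of this length. The 7 genes had 11 windows, with several for Egr2, some of which lacked the half-site. A count by gene and a share by window are thus not on the same scale. Fos held the half-site 129 to 125 and 66 to 62 bases before the start, and Nr4a1 held it at 4 positions. The full CRE, which contains the half-site, was found in Dusp1 alone among the 7, 143 to 136 bases before the start, and in 1.55% of all windows. The CArG box was found in Egr2, 72 to 63 bases before the start of the window shown, and in 1.47% of all windows. The AP-1 site TGACTCA was in none of the 7 genes and in 4.46% of all windows, and the TATA box TATAAA was in Fos and in 7.59% of all windows. A match describes the letters in the window only. Elements farther from the start were not searched, so a gene without a match here may hold the element elsewhere.

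Signals were linear intensities, and every array had been scaled to the same trimmed mean of 150. Median signals of single arrays lay between 43.3 and 55.6. The actin 5′ to 3′ ratio was 0.301 and 0.339 on high-line amygdala arrays 7 and 8, against 0.497 to 0.630 on the other amygdala arrays. Their Gapdh ratios were 1.03 and 1.16, against 1.27 to 1.41 on the others. The signal of the 18S 5′ control differed strongly between tissues, from 295 to 1525 in amygdala and from 3600 to 7093 in hippocampus. Of the marker genes of each region, 14 of 15 hippocampus markers were higher in hippocampus and 1 was higher in amygdala. Of 11 measured amygdala markers 9 were higher in amygdala, and 9 of 9 measured striatum markers were higher in the arrays labelled amygdala. All these calls are by limma with Benjamini-Hochberg adjusted p under 0.05. Between lines, exact permutation tests passed for the 18S 5′ control and the hippocampus and meninges marker lists in hippocampus and for the astrocyte list in amygdala (adjusted p = 0.0487 each). High minus low line (log2), these were -0.38 for 18S, -0.16 for the hippocampus list and 0.26 for the meninges list in hippocampus. The astrocyte list in amygdala was at 0.11. Their part in the line comparison was not tested. In bulk tissue, fewer cells of a type and less RNA per cell cannot be told apart.

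**Figure D1:**
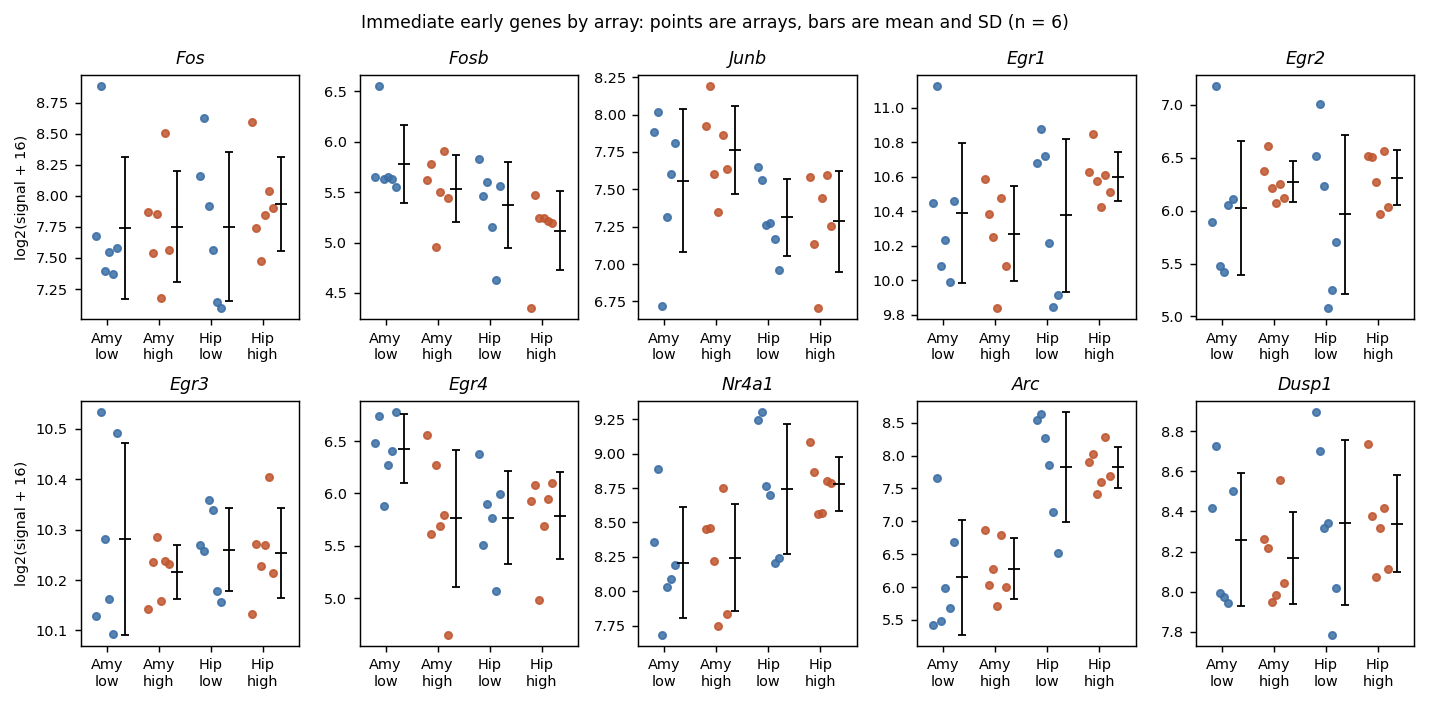
Signal of the 10 immediate early genes on each array, as log2(signal + 16), by tissue (Amy, amygdala; Hip, hippocampus) and line (low or high freezing; 6 arrays a group); points are arrays and bars show the mean and SD. The lines overlap in every panel, and Arc has its higher values in hippocampus.

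No immediate early gene was called between the lines, but hardly any probe set was, so these counts tell little about the genes themselves. In limma fits over all probe sets, 0 of the 12 probe sets differed between lines in hippocampus, against 0.0222% of all probe sets, and 0 of 12 differed in amygdala, against 0.00222% (adjusted p under 0.05). Averaged over both tissues the count was 0 of 12, against 0.238% of all probe sets, and for the interaction of line with tissue it was 0 of 12, against 0%. At an unadjusted p under 0.05 the counts were 0 of 12 in hippocampus, 1 in amygdala, 0 for the average and 0 for the difference between tissues, against 8.97%, 6.54%, 8.83% and 7.08% of all probe sets. The ranges of the low and high line overlapped for 12 of 12 probe sets in both tissues, where 0.637% of all probe sets in hippocampus and 0.402% in amygdala did not overlap. The differences of the 10 genes, high minus low line on the log2(signal + 16) scale, ran from -0.25 to 0.35 in hippocampus and from -0.66 to 0.25 in amygdala.

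Among the AP-1 genes, Fos is the classic mark of a recently active neuron. Its signal had a lowest, median and highest value of 149, 173 and 457 in the low line and 128, 195 and 347 in the high line of the amygdala. In hippocampus these values were 121, 199 and 378 in the low line and 162, 219 and 371 in the high line. Each group thus held arrays about as high and as low as the others, and the Fos line difference was 0.01 (SE 0.27) in amygdala and 0.18 (SE 0.26) in hippocampus. Junb encodes an AP-1 partner that binds Fos proteins. Its lowest, median and highest signals in the amygdala were 89.3, 193 and 243 in the low line and 147, 200 and 277 in the high line. In hippocampus they were 109, 138 and 185 in the low line and 88.3, 147 and 178 in the high line. The Junb line differences were 0.21 (SE 0.21) in amygdala and -0.03 (SE 0.16) in hippocampus. Fosb, whose product can persist in neurons as a truncated form, lay below the median signal of all probe sets on average. Its median amygdala signal was 33.8 for the low line and 31.3 for the high line, its hippocampus medians were 29.6 and 21.4, and 2 single arrays stood far from their groups, a low-line amygdala array at 78.0 and a high-line hippocampus array at 4.38.

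Among the Egr genes, Egr1 (Zif268) is the member most often studied in the consolidation of memory. Its lowest, median and highest signals in the amygdala were 999, 1285 and 2223 in the low line and 899, 1261 and 1523 in the high line. In hippocampus they were 904, 1400 and 1867 in the low line and 1360, 1530 and 1825 in the high line. The low line of the hippocampus thus reached below every high-line array on 3 arrays while its highest array lay above them, and the line difference was 0.22 (SE 0.18, limma adjusted p = 0.754). Egr2, also known for its part in myelination and hindbrain patterning, had median amygdala signals of 47.02 for the low line and 59.2 for the high line, and hippocampus medians of 47.7 and 68.1. Its second probe set had medians of 30.7, 42.4, 28.1 and 14.8 in the same order of groups, so that the 2 probe sets differed in the sign of the hippocampus line difference, 0.35 (SE 0.30) and -0.06 (SE 0.36). Egr3 acts in the same family and is known as a target of Egr1. Its probe set hardly varied, with group medians between 1179 and 1213 and single arrays between 1076 and 1466. The second Egr3 probe set was dim, with group medians between 25.7 and 42.5, and followed the first with a correlation of 0.23 in amygdala and -0.23 in hippocampus, so the Egr3 values were uncertain. Egr4 gave the lowest unadjusted p of the members for line. Its lowest, median and highest signals in the amygdala were 42.8, 71.3 and 93.8 in the low line and 9.16, 37.6 and 78.0 in the high line. The high line held the 4 lowest of these 12 arrays, the ranges overlapped, and the difference of -0.66 (SE 0.27) had a limma p of 0.0285 that became 0.737 after adjustment over all probe sets. In hippocampus the Egr4 difference was 0.02 (SE 0.23), and the difference between tissues was -0.68 (SE 0.37, limma adjusted p = 0.728).

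Of the nuclear receptor Nr4a1, the lowest, median and highest signals in the amygdala were 190, 266 and 459 in the low line and 199, 308 and 415 in the high line. In hippocampus they were 280, 409 and 615 in the low line and 362, 427 and 526.04 in the high line. Hippocampus medians lay above the amygdala medians in both lines, and the line differences were 0.04 (SE 0.21) in amygdala and 0.03 (SE 0.19) in hippocampus. Arc, the synaptic effector, varied widely within each group. Its lowest, median and highest signals in the amygdala were 26.7, 41.3 and 187 in the low line and 36.6, 55.7 and 101 in the high line. In hippocampus they were 76.1, 253 and 381 in the low line and 155, 207 and 297 in the high line. In the order of group means, hippocampus of the low line came first, then hippocampus of the high line, amygdala of the high line and amygdala of the low line, and only the middle step, from high-line hippocampus to high-line amygdala, was free of overlap between neighbours. The Arc line differences were 0.13 (SE 0.36) in amygdala and -0.00 (SE 0.33) in hippocampus. Dusp1, the feedback phosphatase, had median amygdala signals of 282 for the low line and 265 for the high line, and hippocampus medians of 305 and 310, with single arrays between 205 and 460.

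Between tissues, Arc and Nr4a1 were higher in hippocampus and Fosb was higher in amygdala. These were 3 of the 12 probe sets, and 25.8% of all probe sets differed between the tissues (limma over 24 arrays, adjusted p under 0.05), 12.9% in each direction. The members' share was thus near that of all probe sets, dim ones included. Arc differed by -1.61 (SE 0.26, limma adjusted p = 3.33e-05), amygdala minus hippocampus, which is 3.04-fold on the log2(signal + 16) scale, a scale that understates changes at low signal. Nr4a1 differed by -0.53 (SE 0.15, limma adjusted p = 0.00857), or 1.45-fold. Both were called in 33 of 33 other settings of the analysis. Fosb differed by 0.41 (SE 0.15, limma adjusted p = 0.0455), but it was called in only 12 of 32 other settings, with adjusted p between 0.0205 and 0.113, and lost its call on leaving out any of 16 single arrays. Junb, at 0.36 (SE 0.14, limma adjusted p = 0.0570), did not pass and was called in 9 of 33 settings. The other members ran from -0.42 for the second Egr3 probe set to 0.46 for the second Egr2 probe set and did not pass. The pooled ranges of the 2 tissues overlapped for all 12 probe sets, where 4.91% of all probe sets did not overlap. The 18S 5′ control and the striatum markers also differed between the tissues, and their part in the result was not tested.

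**Figure D2:**
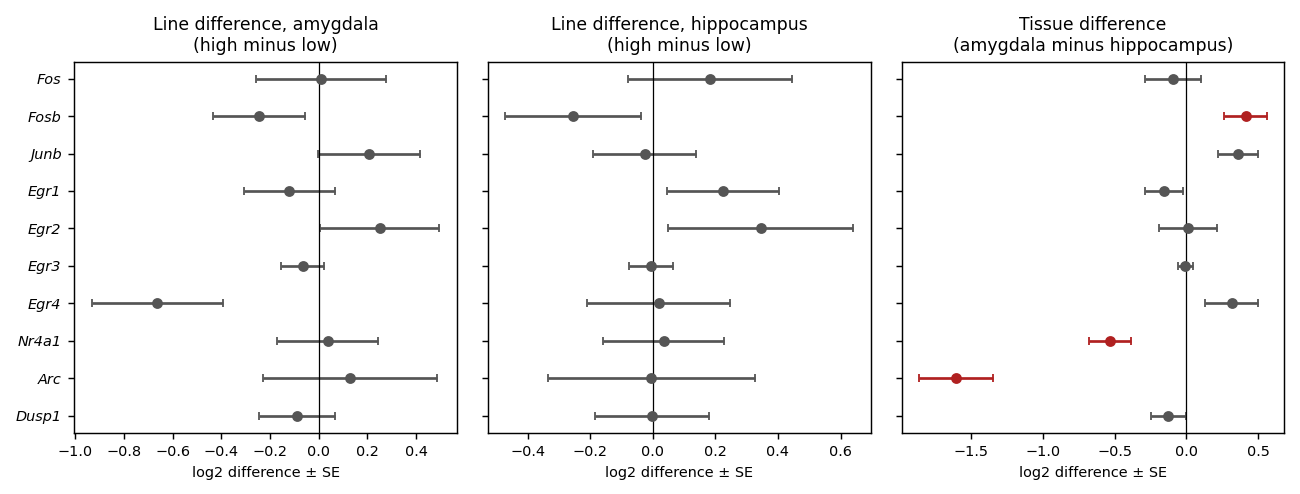
Differences of the 10 genes on the log2(signal + 16) scale with SE: high minus low line in amygdala and in hippocampus (12 arrays each) and amygdala minus hippocampus (24 arrays). Red points have a limma adjusted p under 0.05; these are Fosb, Nr4a1 and Arc in the tissue comparison, and none in the line comparisons.

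Genes around the members gave the same count of 0 between lines. Of all probe sets, 0.0222% were called in hippocampus and 0.00222% in amygdala. Among 35 measured transcripts known to be rapidly induced, 6 other Fos and Jun family members, 12 feedback regulators, 25 activity-induced synaptic and secreted genes, 26 upstream kinases and factors, and 13 Arc-binding proteins and partners, 0 were called between lines in either tissue. At an unadjusted p under 0.05, 6 of the 35 rapidly induced transcripts in hippocampus and 1 in amygdala passed, and 0 to 2 genes of each other list, where 8.97% of all probe sets in hippocampus and 6.54% in amygdala did. The lowest line p in these lists averaged over tissues was that of Ptgs2, which encodes the inducible cyclooxygenase, at -0.44 (SE 0.12, limma adjusted p = 0.163). Between tissues, 25.8% of all probe sets were called. That figure counts every probe set, dim ones included, while the lists count genes, so it is not a matched background for them. Leaving out the lowest 40% of probe sets hardly changed the number of calls, so the share called among brighter probe sets was higher. Whether any list held more tissue differences than probe sets of like signal was not tested. Of the 35 rapidly induced transcripts 19 were called, 13 with more signal in hippocampus and 6 with more in amygdala. Among these, Cebpd differed by -2.02 (SE 0.09), Nr4a3, a receptor of the Nr4a1 family, by -1.12 (SE 0.08) and Errfi1 by -0.81 (SE 0.06), all higher in hippocampus, and Rgs2, a regulator of G protein signalling, by 1.01 (SE 0.06), higher in amygdala. Of the 6 other Fos and Jun family members, Jun at -0.98 (SE 0.09) and Fosl2 at -0.87 (SE 0.10) were higher in hippocampus and Jund at 0.35 (SE 0.08) was higher in amygdala. Of the 12 feedback regulators, 5 were higher in hippocampus and 2 in amygdala, with the phosphatases Dusp5 at -1.84 (SE 0.16), Dusp4 at -1.10 (SE 0.12) and Dusp14 at 0.75 (SE 0.06) and the G protein regulator Rgs4 at 0.76 (SE 0.05). Of the 25 activity-induced genes 9 were higher in each tissue, among them the synaptic pentraxin Nptx1 at -1.20 and, besides Rgs2, the tachykinin precursor Tac1 at 1.83 and the vesicle protein Syt4 at 0.74. Of the 26 upstream genes 8 were higher in amygdala and 4 in hippocampus, led by the transcription factor Mef2c at 1.18, the protein kinase A subunit Prkacb at 1.05, the calmodulin kinase Camk2a at -0.87 and Mef2a at -0.44. Of the 13 Arc-binding genes 4 were higher in each, with the dynamin Dnm3 at 0.70, the endophilin Sh3gl3 at 0.59, the dynamin Dnm1 at -0.21 and the scaffold Dlg4 at -0.20.

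Most of these genes varied widely between arrays of the same line and tissue. The SD of Arc within lines was 4.05 times the median SD of the 1000 probe sets nearest to it in signal in hippocampus and 2.89 times in amygdala. For Egr1 the ratios were 3.92 and 3.32, for Fos 3.22 and 3.18, and for Nr4a1 3.02 and 2.74. Egr3 varied like other probe sets of its signal, with ratios of 0.98 in hippocampus and 1.31 in amygdala, and so did Fosb, at 0.94 in hippocampus and 1.20 in amygdala, and Egr4 in hippocampus, at 1.29. The low line was the more variable: its SD exceeded that of the high line for 8 of 10 genes in hippocampus and 9 of 10 in amygdala, with median ratios of 1.65 and 1.47. Over the 22518 probe sets above the median signal, 45.3% in hippocampus and 50.5% in amygdala varied more in the low line. These counts were made after the values were seen and carry no test, since the members vary together. In amygdala the pattern rested on 1 array: without low-line array 2 the count was 5 of 10 and the median ratio 0.95. In hippocampus the count was between 6 and 9 on leaving out any low-line array.

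The members varied together. On amygdala array 2 of the low line, all 10 genes lay above their line's mean, by 0.75 on average (log2), and on amygdala arrays 3, 4 and 10 all 10 lay below it. In hippocampus, all 10 lay above the mean on arrays 1 and 11 and below it on array 5. A deviation is taken from the mean of the line's arrays, so the high array 2 pushes the other low-line amygdala arrays below that mean. Their joint position on arrays 3 and 4 is thus not separate from array 2, and Egr3 was only at -0.0003 on array 3. Arrays high for one gene were mostly high for the others.

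**Figure D3:**
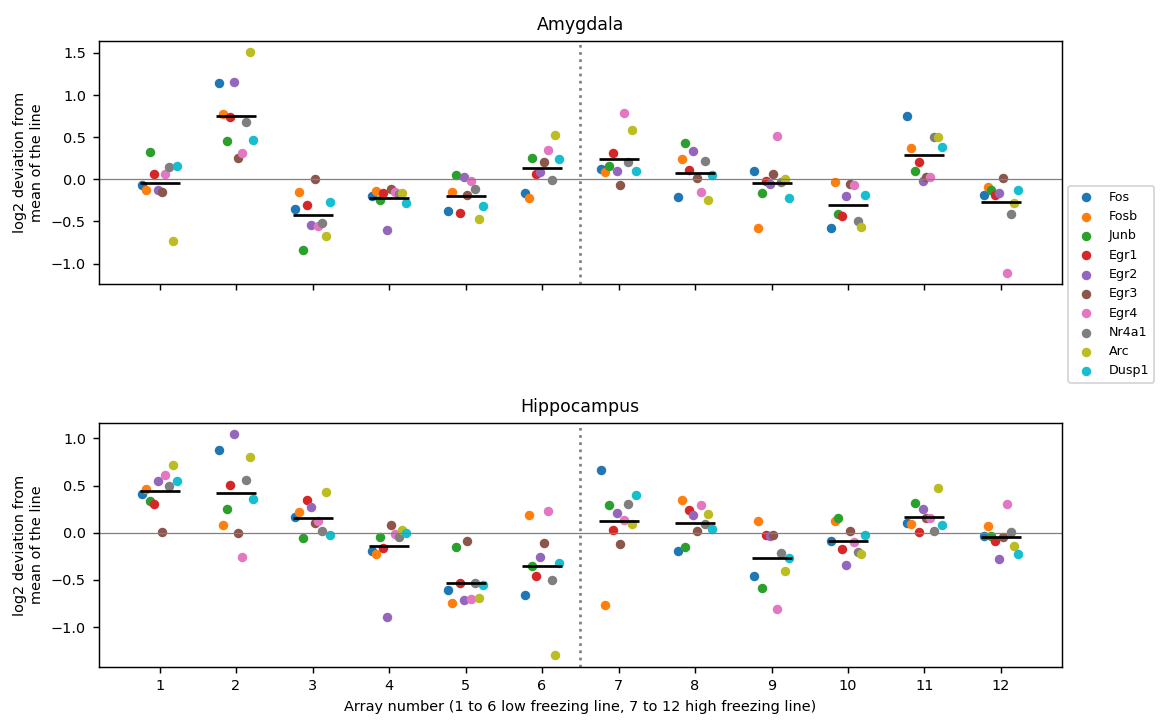
Deviation of each gene from the mean of its line (log2) on the 12 arrays of amygdala (top) and hippocampus (bottom); points are the 10 genes and black bars their mean. Array 2 of amygdala has all 10 genes above 0, and array 5 of hippocampus has all 10 below 0.

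After subtracting the line means, 14 of the 45 gene pairs in amygdala and 12 of 45 in hippocampus had a correlation with an adjusted p under 0.05 (permutation within line, Benjamini-Hochberg over 90 pairs in both tissues), all of them positive. At an unadjusted permutation p under 0.05 the counts were 24 and 19. How many pairs of other probe sets pass on these arrays was not counted. The median Pearson r over all 45 pairs was 0.69 in amygdala, with a range from 0.06 to 0.90, and 0.48 in hippocampus, with a range from -0.07 to 0.93. With Spearman's rho, 13 pairs passed in each tissue, 11 and 10 of them among the pairs that passed with r. These counts depended on a few arrays. Low-line arrays 1 and 2 of both tissues were left out in a choice made after the data were seen. The members were high on 3 of these 4 arrays, by 0.75 on amygdala array 2 and by 0.44 and 0.42 on hippocampus arrays 1 and 2 (mean log2 deviation), but not on amygdala array 1, at -0.05. Over the 10 remaining arrays 0 pairs passed in either tissue. The smallest adjusted p was then 0.102 in both, and 12 amygdala pairs and 10 hippocampus pairs had an unadjusted permutation p under 0.05. The pairs called before were still positive, 14 of 14 in amygdala with r from 0.42 to 0.88 and 12 of 12 in hippocampus with r from 0.52 to 0.87, while the median r over all pairs was 0.44 and 0.42. Without amygdala array 2 alone, 4 amygdala pairs passed, 3 of them among the 14.

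**Figure D4:**
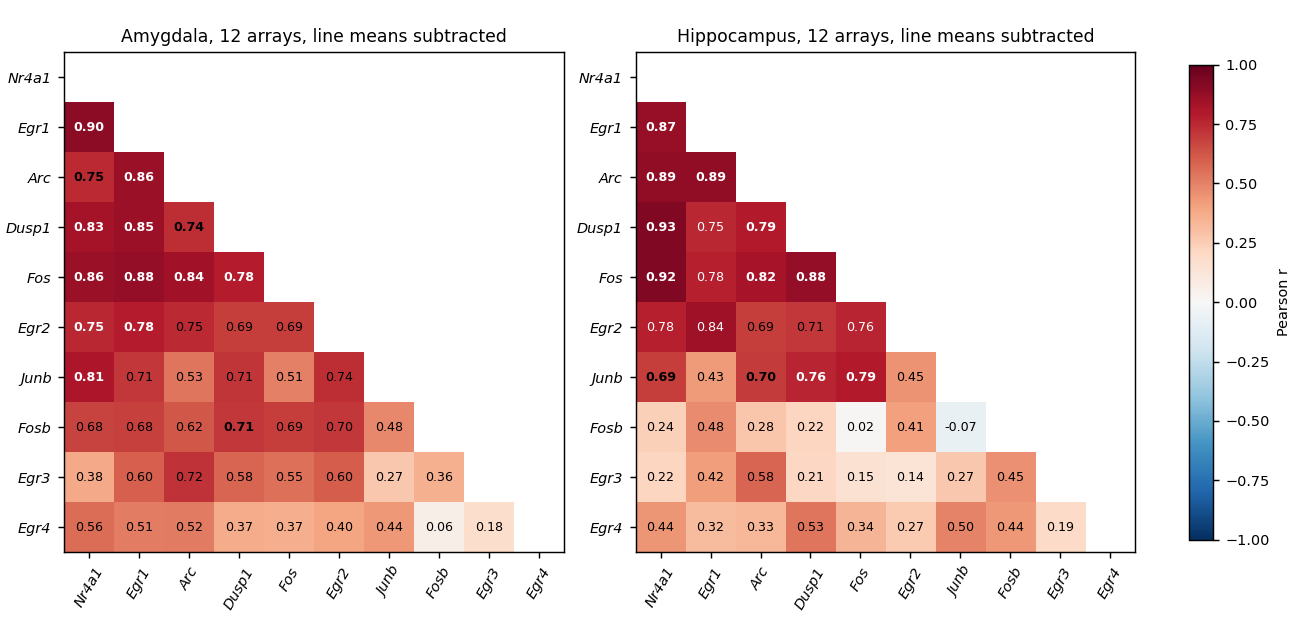
Pearson r of each gene pair over 12 arrays of amygdala (left) and hippocampus (right), line means subtracted; bold values have a permutation p under 0.05 after adjustment over 90 pairs. Values are highest among Nr4a1, Egr1, Arc, Dusp1 and Fos; none of the bold values remained under 0.05 without arrays 1 and 2.

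The pairs that passed in both tissues with all arrays were 9, and Nr4a1 took part in 5 of them: with Fos, Junb, Egr1, Arc and Dusp1. The other pairs were Fos with Arc, Fos with Dusp1, Egr1 with Arc and Arc with Dusp1. Fos and Nr4a1 had r = 0.86 (rho = 0.76, adjusted permutation p = 0.0135) in amygdala and r = 0.92 (rho = 0.87, adjusted permutation p = 0.0108) in hippocampus. The correlation was positive in each line, 0.90 and 0.82 in the low and high line of the amygdala and 0.97 and 0.82 in hippocampus. Without the 2 arrays farthest from the median of Fos it was 0.68 (unadjusted permutation p = 0.0624) and 0.90 (unadjusted permutation p = 0.00558). Without arrays 1 and 2 it was 0.78 (unadjusted permutation p = 0.0233) and 0.87 (unadjusted permutation p = 0.00556). Egr1 and Arc had r = 0.86 (rho = 0.76, adjusted permutation p = 0.0156) in amygdala and r = 0.89 (rho = 0.89, adjusted permutation p = 0.0168) in hippocampus. In the high line of the hippocampus alone r was 0.53, against 0.93 in the low line. Without the 2 arrays farthest from the median of Egr1, r of Egr1 and Arc was 0.60 in amygdala (unadjusted permutation p = 0.0864). In hippocampus it was 0.86 (unadjusted permutation p = 0.0133). Nr4a1 and Dusp1, a transcription factor and the phosphatase that ends MAP kinase signalling, had r = 0.83 in amygdala and r = 0.93 in hippocampus (rho = 0.77 and 0.92, adjusted permutation p = 0.0108 in both). Over all called pairs, leaving out the 2 arrays farthest from the median of the first gene kept r positive for 14 of 14 in amygdala and 12 of 12 in hippocampus, and the unadjusted permutation p stayed under 0.05 for 6 of 14 and 12 of 12. For the other 8 amygdala pairs that p was between 0.0624 and 0.337, with r from 0.30 to 0.68.

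**Figure D5:**
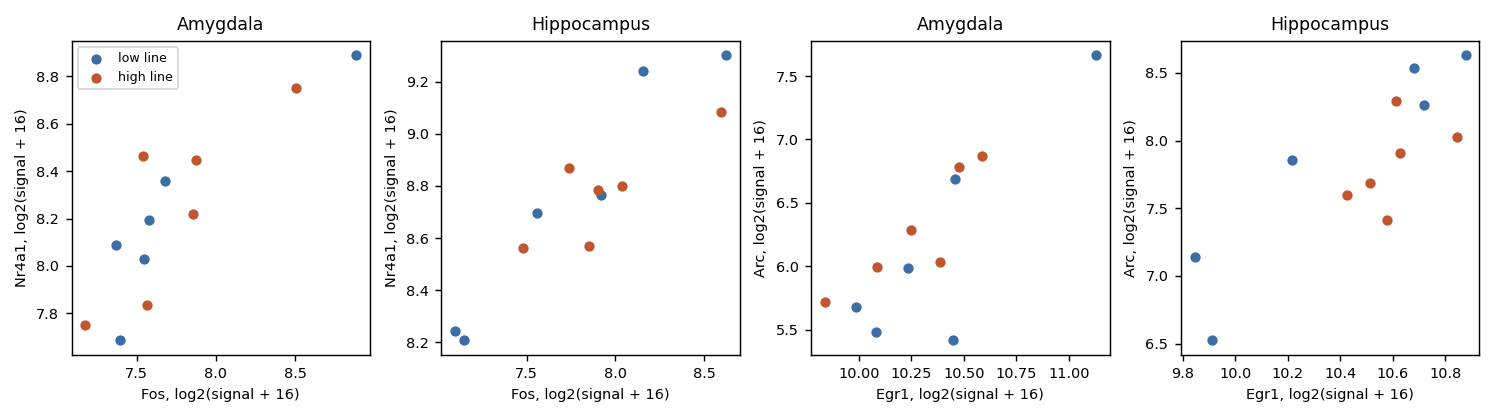
Nr4a1 against Fos (left pair of panels) and Arc against Egr1 (right pair) on the 12 arrays of each tissue, both axes log2(signal + 16); blue is the low and red the high line. The amygdala panels have 1 low-line array, array 2, far above the rest for Egr1 and Arc.

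Not every member had a called pair, but a pair that was not called over so few arrays may still covary. Egr3 and Egr4 had no called partner in either tissue, with median r over their 9 partners of 0.55 and 0.40 in amygdala and 0.22 and 0.34 in hippocampus. Fosb had 1 called partner in amygdala, Dusp1 (r = 0.71), and none in hippocampus, where its median r was 0.28. Egr2 had 2 in amygdala, Egr1 and Nr4a1, and none in hippocampus, although its r with Egr1 there was 0.84 (adjusted permutation p = 0.0548). The median r of Egr2 in hippocampus was 0.69, near the 0.70 of Arc, which had 5 called partners there. Junb joined 4 pairs in hippocampus and 1 in amygdala. The mean log2 signal of Egr4, 5.94, lay near the median of all probe sets, 5.93, and that of Fosb lay below it, at 5.45. The SD of Egr3 within lines was only 0.14 in amygdala and 0.086 in hippocampus. Whether low signal or little variation lowered the correlations of these genes was not tested. Each member's mean r with the other 9 was also placed among the 22518 probe sets above the median signal. Other members above that median were among these probe sets. Their correlation with themselves entered their mean, which can raise the shares given here. For Nr4a1, 0.0355% of these in amygdala and 0.0222% in hippocampus had a higher mean r with the same 9 genes. The shares were 2.03% and 17.2% for Fosb, 5.11% and 15.1% for Egr3, and 10.3% and 9.38% for Egr4. For the other members they lay between 0.00444% (Egr1, amygdala) and 2.46% (Junb, hippocampus). Whether a pair's correlation differed between tissues was not tested.

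Other measures of the arrays were set beside the members, 300 relations in all over both tissues. Of the relations with the array median, the 18S 5′ control and the 5′ to 3′ ratios of actin and Gapdh, 0 of 40 in each tissue passed after adjustment (permutation, 1 of 40 in each at an unadjusted p under 0.05). Of the relations with marker lists, 0 of 110 passed in amygdala (3 unadjusted) and 1 of 110 in hippocampus (20 unadjusted). That 1 was Dusp1 with the mean of 10 astrocyte markers, r = -0.92 (rho = -0.91, adjusted permutation p = 0.0210). The other members had r between -0.86 and -0.15 with the same list in hippocampus, and over all 10 genes the median was -0.77, with 7 of 10 at an unadjusted permutation p under 0.05. The astrocyte mean itself spanned 9.84 to 10.0 in the low line and 9.96 to 10.0 in the high line (log2). Other lists moved with the members in hippocampus without passing after adjustment (lowest adjusted permutation p = 0.210). The median r was -0.54 for the meninges list and -0.50 for the blood list, negative for all 10 genes in both, with 2 and 5 of 10 at an unadjusted permutation p under 0.05. It was -0.39 for the oligodendrocyte list, with 3 of 10, and 0.48 for the hippocampus markers, with 2 of 10. In the low and then the high line of hippocampus, the mean level of the meninges list spanned 6.74 to 7.21 and 7.17 to 7.38 (log2), and that of the blood list 4.53 to 4.99 and 4.57 to 5.22. The oligodendrocyte list spanned 9.60 to 9.91 and 9.37 to 10.1, and the hippocampus markers 8.85 to 9.04 and 8.69 to 8.86. The blood list rested on 4 measured genes of 6, and its mean lay below the median of all probe sets, 5.93 on this scale. In amygdala the median r with the astrocyte list was -0.34, and the list of 13 heat shock and hypoxia genes had a median r of 0.60, with 2 of 10 at an unadjusted permutation p under 0.05. That mean spanned 8.43 to 9.07 in the low line and 8.49 to 8.69 in the high line. The part of these lists in the covariation was not tested.

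Outside the members, the genes most like them in amygdala, by mean r with the 10 genes over 12 arrays, were Snrnp48 (0.78), Csnk2a2 (0.75), Nr4a3 (0.74), Scaf8 (0.74) and Tmem150c (0.73). In hippocampus they were Rasl11b (0.71), Aifm3 (0.70), Slco3a1 (0.69), Gpd2 (0.69) and Rab2a (0.68). Of these 10 only Nr4a3 was in the lists of rapidly induced genes, and no gene was among the first 5 in both tissues. Over the 22518 probe sets above the median signal, the middle 95% of this mean ran from -0.53 to 0.53 in amygdala and from -0.47 to 0.49 in hippocampus. The rapidly induced transcripts had a median of 0.31 in amygdala and 0.25 in hippocampus, with 26 and 25 of 35 above 0, and the feedback regulators 0.44 and 0.26, with 11 and 10 of 12 above 0. The Fos and Jun family members that are not in the member set had medians of 0.14 and 0.01. These values share arrays and depth and are a description.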

How the data were processed

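Mouse Affymetrix arrays were measured in 4 groups of 6. The authors deposited 1 table of linear intensity values, in which the 2% trimmed mean of every array is 150, as found from the values. The signal algorithm is not given in the sources used here. Values were taken as log2(signal + 16), 64 control probe sets were left out, and limma 3.58.1 (R 4.3.3; lmFit and eBayes) was fitted on 45037 probe sets with Benjamini-Hochberg adjustment, called at 0.05. Line was tested within the 12 arrays of a tissue; tissue, line average and interaction over 24 arrays. Probe sets were named from the platform annotation: 34945 had 1 symbol, 932 several and 9160 none. Pair correlations used 100000 permutations within line (Python 3.11.15). The number of arrays limits the precision. Scripts were tested on simulated data. All 10 members were named; for each other list, counts and up to 4 called genes of lowest p or, with none called, up to 2 of lowest p; and the 5 genes most like the members per tissue. The members and lists were chosen with earlier results of these data known. Alternatives varied the pseudocount, scaling, filter, variance model, block, probe set and arrays; 1 set of left-out arrays was added after the data were seen.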

Additional observations from a re-analysis of the deposited data

Results flagged for a closer look

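Of 48 groups of 6 arrays examined, 4 held 1 array far from the other 5, where chance flags about 1 in 20 groups. Fos in low-line amygdala had array 2 at 457.2, against 149.4 to 189.0 on the others. Fosb in low-line amygdala had the same array at 78.0, against 31.0 to 34.3. Fosb in high-line hippocampus had array 7 at 4.38, against 20.5 to 28.3. Egr4 in high-line hippocampus had array 9 at 15.7, against 35.7 to 52.4.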

How the results depend on the processing

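Between lines, 0 members were called in hippocampus, in amygdala, averaged over tissues and for the difference between tissues under every alternative run, each left-out array included. Between tissues the count was 2 to 4 (2 to 4 on leaving out 1 array), and Arc and Nr4a1 were called throughout. The covarying pairs numbered 11 to 19 in amygdala and 12 to 18 in hippocampus under the planned settings, and 4 to 17 and 8 to 14 on leaving out 1 array. Without low-line arrays 1 and 2 of both tissues, chosen after the data were seen (the members were high on 3 of these 4, not on amygdala array 1), they were 0 in amygdala and 0 in hippocampus over 10 arrays, and Fosb lost its tissue call (0.40, adjusted p = 0.0657). The cause was not tested. The labels do not say whether equal array numbers mark 1 mouse. Over the 22518 probe sets above the median signal, 2 of 12 numbers correlated over 0.1 across tissues and 2 of 12 correlated best with their own number, so no pairing was assumed. Of the members, 0 of 10 passed across tissues by number, with r from -0.31 to 0.63 (Egr2 0.63, Fos 0.58, Egr1 and Dusp1 0.54, Nr4a1 0.51; without the 2 farthest numbers -0.10 for Egr2, 0.28 for Fos, 0.27 for Egr1, 0.48 for Dusp1 and 0.32 for Nr4a1; lowest adjusted permutation p = 0.244, 0 at an unadjusted p under 0.05). With the replicate block, 3 members were called between tissues, with Junb in place of Fosb, 0 for the difference between tissues, and 0 for the line average with a random block.

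Several uncalled differences near 0 changed sign. Without arrays 1 and 2, the hippocampus line differences were 0.12 for Junb, 0.38 for Arc, 0.22 for Dusp1 and 0.24 for the second Egr2 probe set, and the amygdala ones 0.079 for Egr1, 0.067 for Dusp1 and 0.19 for the second Egr3 probe set. With log2(signal + 1), the line difference was 0.011 for Arc and 0.020 for the second Egr2 probe set in hippocampus and -0.077 for the latter in amygdala. With quantile normalization, hippocampus line differences were 0.0064 for Arc, 0.018 for Egr3, 0.0038 for Dusp1 and -0.047 for Egr4, and the Egr3 tissue difference was 0.0079. With median centring, hippocampus line differences were -0.031 for Nr4a1 and -0.048 for Egr4, and the Egr3 tissue difference was 0.0062. Amygdala arrays 7 and 8 had the lowest actin and Gapdh 5′ to 3′ ratios in amygdala. Without them, amygdala line differences were -0.069 for Nr4a1, 0.022 for the second Egr3 and -0.17 for the second Egr2 probe set. The Egr2 tissue difference was -0.044 without them and -0.0016 with log2(signal + 64).

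Leaving out 1 array, hippocampus line differences ran from -0.096 to 0.090 for Junb, -0.072 to 0.15 for Nr4a1, -0.26 to 0.16 for Arc, -0.18 to 0.11 for the second Egr3 and -0.29 to 0.090 for the second Egr2 probe set, -0.037 to 0.017 for Egr3, -0.11 to 0.11 for Dusp1 and -0.12 to 0.18 for Egr4. In amygdala they ran from -0.067 to 0.17 for Nr4a1, -0.20 to 0.027 for Egr1, -0.018 to 0.43 for Arc, -0.23 to 0.036 for the second Egr3 and -0.22 to 0.32 for the second Egr2 probe set, -0.14 to 0.24 for Fos and -0.17 to 0.0033 for Dusp1. Tissue differences ran from -0.10 to 0.12 for Egr2 and -0.033 to 0.011 for Egr3.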
